A study of Danio rerio with 12 samples.

Results

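The genes described here build, fold and ship proteins of the endoplasmic reticulum (ER). They are the 33 Ensembl genes, of 31953 in the deposited tables, whose symbol in the study's supplementary tables starts with the name of an ER chaperone, a disulfide or lectin-type folding factor, a part of the machinery that brings proteins into the ER or adds sugar to them, a degradation factor, or a carrier between the ER and the Golgi. The symbols of 28 of the genes stand in tables that list features whether or not they changed, those of *pdia2* and *ssr1* stand only in lists of changed proteins, and those of *manf*, *hyou1* and *SIL1* stand only in the study's lists of changed transcripts. For those last 3 genes the values at the age of the list are therefore a description without a test. Counts of called genes leave them out, at 5 days post fertilization (dpf) all 3, leaving 30 genes, and at 8 dpf *manf*, leaving 32.

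RNA-Seq was made from pools of 5 whole zebrafish larvae of the AB background. They were either homozygous mutants (Mut, *mia40a* waw1/waw1 in the labels) or their wild-type siblings (WT). The study describes its *mia40a* mutant under another allele name, as a small TALEN-made deletion that shifts the reading frame. Each of 2 ages, 5 and 8 dpf, has 3 Mut and 3 WT libraries. Mia40a is the import receptor that oxidises cysteine-rich proteins of the mitochondrial intermembrane space. The 8 dpf larvae of both genotypes had been given food from 5 dpf. Every cell of a Mut larva carries the mutation, the study gives no account of which clutches the pools came from, and p values therefore measure only the spread between these pools. In whole larvae, fewer cells of a type and less RNA per cell cannot be told apart.

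Proteins that are secreted or sit in membranes enter the ER while they are made. The signal recognition particle brings the ribosome to the Sec61 channel, the signal peptide is cut off, sugar chains are added by the oligosaccharyltransferase, and chaperones and disulfide isomerases fold the chain before coated vesicles carry it to the Golgi. Many of these genes are known targets of the unfolded protein response, in which the sensors Atf6, Ire1 and Perk raise chaperone transcription when unfolded protein builds up in the ER. In larvae of this age the exocrine pancreas and the liver are among the tissues with the heaviest secretory load.

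The deposited values are normalized, rounded read numbers (normalized values here). They summed to 16997847 to 18177809 per library at 5 dpf and to 22595423 to 25417541 at 8 dpf. At 5 dpf the reads on genes, estimated for 5 of the 6 libraries from the spacing of the low normalized values, were 16191298 to 20467397, and the depth at 8 dpf is unknown. Each age has its own normalization, and no level is compared across ages. *mia40a* itself (ENSDARG00000033376) had, at 5 dpf, 82, 91 and 92 in WT and 264, 262 and 261 in Mut. The values for 8 dpf were, in the same order, 488, 394 and 397 against 383, 413 and 443. The groups did not overlap at 5 dpf and overlapped at 8 dpf, and the RNA level of a gene with a small deletion is no check of the genotype. A gene was called changed at a Benjamini-Hochberg adjusted p under 0.05 over all genes tested, which were 22521 at 5 dpf and 20963 at 8 dpf, and fold changes are given on the log2(value + 1) scale with the standard error (SE).

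At 5 dpf the ER folding and secretion genes were mostly higher in Mut. Of the 30 genes counted at this age, 8 rose and 0 fell, beside 3.82% of all genes tested that rose and 2.17% that fell. The 30 are not free of circularity, since they were chosen with earlier results of these data known. *hspa5* also stands in the study's 5 dpf list of changed transcripts, though other tables name it as well. At an unadjusted p under 0.05, 17 were higher in Mut and 0 were lower, against 11.3% and 8.73% of all genes. Limma-voom on estimated reads also gave 8 that rose and 0 that fell. In that fit Mut replicate 1, which has no estimate, entered with its normalized values. The median log2 fold change of the 30 was 0.22, against -0.00 for all genes tested, and 28 of 30 had the higher mean in Mut and 2 the lower one, against 49.8% and 50.2% of all genes. All 3 Mut pools were above all 3 WT pools for 14 of the 30 genes, as they were for 12.9% of all genes. As the median of the 30 genes, each library's log2 value over the WT mean was 0.09, -0.05 and -0.01 for the WT libraries against 0.19, 0.30 and 0.17 for the Mut libraries. Single genes of the 30 ran from 1.00 for *hspa5* to -0.03 for *sel1l*.

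**Figure D1:**
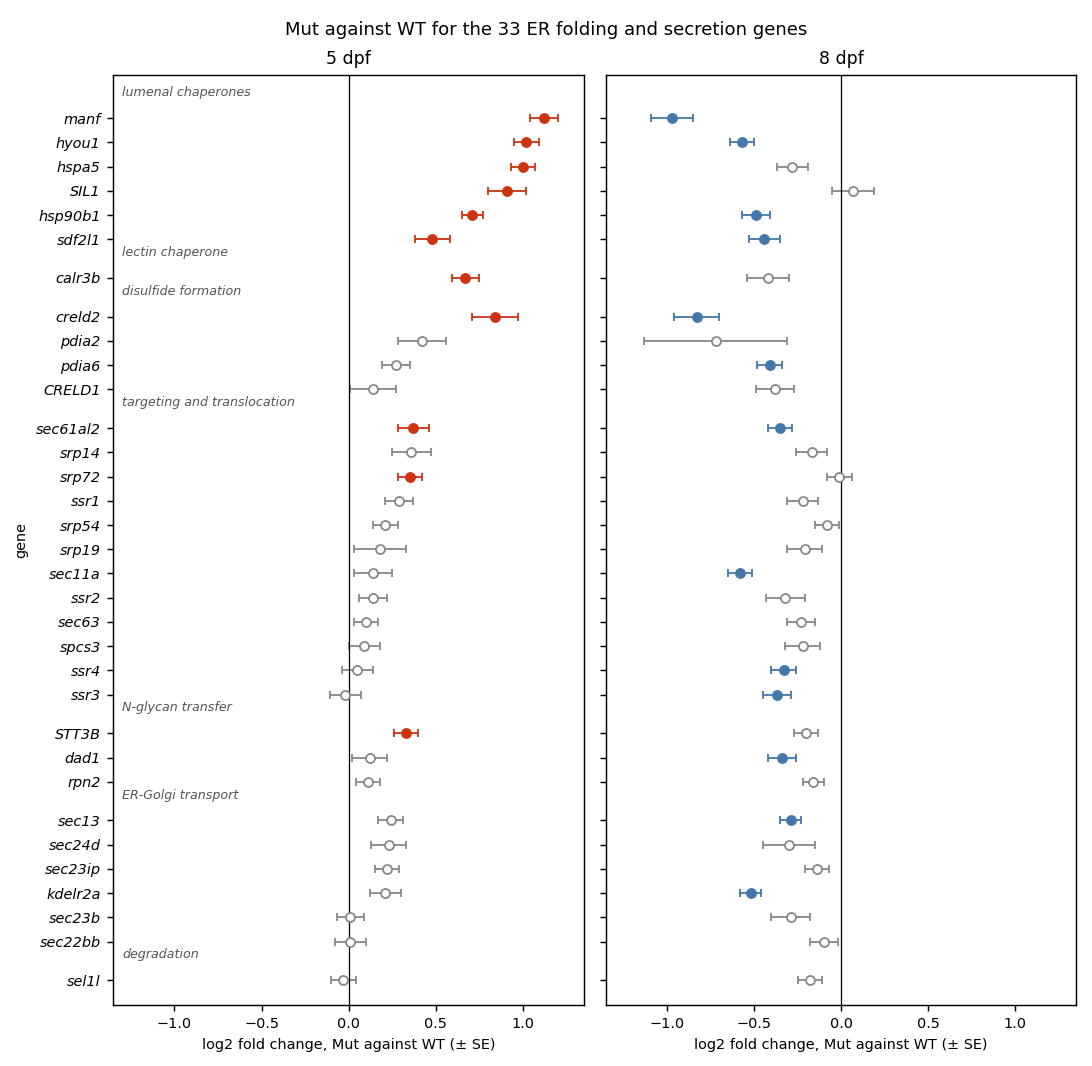
Log2 fold change of Mut against WT (x axis, ± SE, limma, 3 pools per genotype) for each of the 33 genes (y axis), grouped by role, at 5 dpf (left) and 8 dpf (right). Red filled points rose and blue filled points fell at an adjusted p under 0.05, and open grey points did not pass (for *manf*, *hyou1* and *SIL1* at 5 dpf and *manf* at 8 dpf the fill is a description, with no test). *manf* lies farthest to the right at 5 dpf, at 1.12, and at 8 dpf every gene but *SIL1* lies at or left of 0.

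Of the lumenal chaperones and their cofactors, all 3 that were counted rose at 5 dpf, beside 3.82% of all genes tested. *hspa5* (ENSDARG00000103846) encodes BiP, the Hsp70 of the ER lumen that holds unfolded chains and keeps the stress sensors silent. Its normalized values were 3345, 3465 and 3460 in WT and 7211, 6784 and 6609 in Mut. The Mut pools lay close together at about the same distance above the tight WT pools, and the log2 fold change was 1.00 ± 0.07 (adjusted p = 2.9e-05), a 2-fold rise. *hsp90b1* (ENSDARG00000003570), the Hsp90 of the ER, had 3578, 3419 and 3630 in WT and 5884, 5848 and 5709 in Mut. No pool of either group came near the other group, and the gene rose by 0.71 ± 0.06 (adjusted p = 1.7e-04). *sdf2l1* (ENSDARG00000035631), a partner of BiP and its J-domain proteins that in mammals keeps client chains soluble, had 322, 301 and 263 in WT and 385, 436 and 410 in Mut. These groups did not overlap either, with a smaller rise of 0.48 ± 0.10 (adjusted p = 0.022).

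The 3 genes named only by the study's own lists of changed transcripts have the same role. *manf* (ENSDARG00000063177), an ER-resident factor known in mammals as a stress-induced partner of BiP that is also secreted, had 237, 225 and 219 in WT and 486, 504 and 492 in Mut, a log2 fold change of 1.12 ± 0.08. *hyou1* (ENSDARG00000013670), a large Hsp70-like protein that swaps the nucleotide on BiP, had 905, 863 and 966 in WT and 1885, 1893 and 1749 in Mut, or 1.02 ± 0.07 on the log2 scale. *SIL1* (ENSDARG00000100564), the other nucleotide exchange factor of BiP, had 236, 235 and 268 in WT and 494, 501 and 398 in Mut, or 0.91 ± 0.11. In all 3 the lowest Mut pool stood above the highest WT pool, which the way they were named makes likely. Summed over the 3 other genes of this role, *hspa5*, *hsp90b1* and *sdf2l1*, the normalized value was 7185 to 7353 in the WT pools and 12728 to 13480 in the Mut pools.

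**Figure D2:**
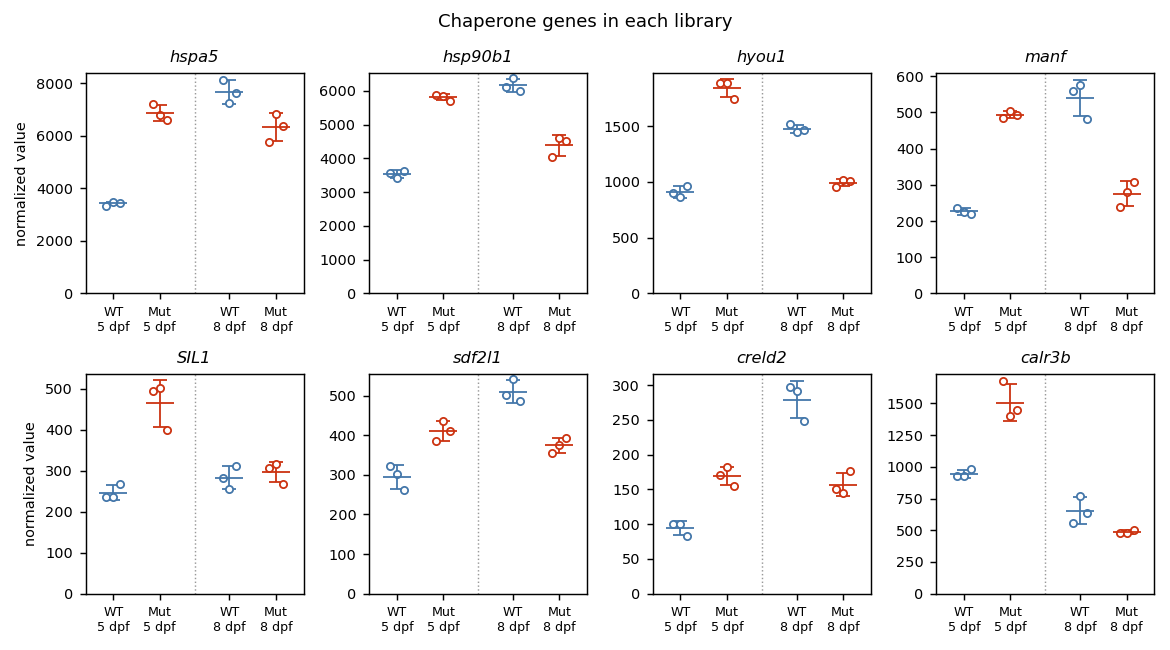
Normalized value (y axis, from 0, each gene on its own scale) of 8 chaperone and folding genes in each library, with the group mean and SD (n = 3 pools), WT in blue and Mut in red, for 5 dpf left and 8 dpf right of the dotted line. The Mut points lie above the WT points in all 8 panels at 5 dpf and below them in 7 at 8 dpf, the exception being *SIL1*. The 5 dpf order follows from the choice of genes. *manf*, *hyou1* and *SIL1* were named by lists of changed transcripts, and the others were picked from those that rose at 5 dpf. Of all genes, 12.9% had every Mut pool higher at 5 dpf and 17.3% every Mut pool lower at 8 dpf. Heights on the left and right of the line have different normalizations. The 8 dpf values had a batch effect removed by the authors, which partly sets their spread and SD.

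Among the 1 lectin and 4 disulfide folding factors, 2 genes rose at 5 dpf, beside 3.82% of all genes tested. *creld2* (ENSDARG00000029071), which in mammals is an ER-stress-induced protein with disulfide isomerase activity, was listed at 100, 100 and 83 in WT and 171, 182 and 155 in Mut. Its groups were well apart, with a rise of 0.84 ± 0.13 (adjusted p = 0.0051), or 1.79-fold. *calr3b* (ENSDARG00000102808), a calreticulin that by its family binds glycoproteins with a trimmed sugar chain, had 924, 925 and 983 in WT and 1675, 1398 and 1445 in Mut. It rose by 0.67 ± 0.08 (adjusted p = 0.0013), Mut replicate 1 being the highest pool. For *pdia6* (ENSDARG00000009001), a disulfide isomerase that in mammals acts with BiP, the values were 572, 544 and 597 in WT and 656, 734 and 677 in Mut. These groups did not overlap, yet the log2 fold change of 0.27 ± 0.08 missed the threshold (adjusted p = 0.076). *pdia2*, a disulfide isomerase best known from the mammalian pancreas, had 2894, 2124 and 1829 in WT and 2889, 3107 and 3015 in Mut. WT replicate 1 lay among the Mut pools and the gene was not called (0.42 ± 0.14, adjusted p = 0.109). *CRELD1*, the membrane-bound relative of *creld2*, was not called either, at 0.14 ± 0.13.

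Of 12 genes of targeting, translocation and signal peptide removal 2 rose at 5 dpf, beside 3.82% of all genes tested. The log2 fold changes of all 12 ran from -0.02 to 0.37. *sec61al2* (ENSDARG00000005675), which encodes a form of the pore-forming subunit of the Sec61 channel, had 499, 456 and 421 in WT and 552, 614 and 609 in Mut. Its rise was 0.37 ± 0.09 (adjusted p = 0.039). Another gene for this subunit, *SEC61A1* (ENSDARG00000021669), is among the further genes below and had far higher means, 5813 in WT and 6007 in Mut. It was not called (0.05 ± 0.07, adjusted p = 0.778). *srp72* (ENSDARG00000014139), a protein of the signal recognition particle, had 1108, 1048 and 1046 in WT and 1336, 1349 and 1409 in Mut. All Mut pools were higher, by 0.35 ± 0.07 (adjusted p = 0.012). Another particle subunit, *srp14* (ENSDARG00000101066), had 359, 301 and 298 in WT and 361, 455 and 413 in Mut. Its WT replicate 1 almost reached the lowest Mut pool, and its 0.36 ± 0.11 did not pass (adjusted p = 0.1). *ssr1* (ENSDARG00000101627), the alpha subunit of the translocon-associated protein complex, had 1232, 1033 and 1059 in WT and 1383, 1389 and 1279 in Mut. The groups were separate but the 0.29 ± 0.08 did not pass (adjusted p = 0.074). The other subunits of that complex overlapped between genotypes, *ssr2* (ENSDARG00000005230) with 2089, 1836 and 1805 in WT and 1937, 2197 and 2157 in Mut, *ssr3* (ENSDARG00000014165) with 1675, 1321 and 1496 in WT and 1390, 1477 and 1549 in Mut. The last, *ssr4* (ENSDARG00000019444), had 2247, 1834 and 1867 in WT and 1948, 2130 and 2053 in Mut. In each of these WT replicate 1 lay above at least 1 Mut pool, and the differences were 0.14 ± 0.08, -0.02 ± 0.09 and 0.05 ± 0.09. *sec11a* (ENSDARG00000008936), a catalytic subunit of signal peptidase, had 511, 445 and 446 in WT and 451, 577 and 517 in Mut, with overlapping groups and 0.14 ± 0.11 (adjusted p = 0.521). The remaining genes of this role, *srp54*, *srp19*, *sec63* and *spcs3*, differed by 0.21 ± 0.07, 0.18 ± 0.15, 0.10 ± 0.07 and 0.09 ± 0.09, and none was called.

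Among 3 genes of N-glycan transfer 1 rose at 5 dpf, beside 3.82% of all genes tested. *STT3B* (ENSDARG00000001890), a catalytic subunit of the oligosaccharyltransferase, had 1384, 1319 and 1484 in WT and 1775, 1816 and 1687 in Mut, a rise of 0.33 ± 0.07 (adjusted p = 0.022) without overlap. Its accessory subunit *dad1* (ENSDARG00000102105) had 939, 774 and 856 in WT and 842, 1025 and 933 in Mut. WT replicate 1 exceeded 2 of the Mut pools, and the difference of 0.12 ± 0.10 was not called (adjusted p = 0.525), like that of *rpn2* (0.11 ± 0.07). Of 6 genes of transport between the ER and the Golgi 0 rose and 0 fell in limma, with log2 fold changes of 0.01 to 0.24. At an unadjusted p under 0.05, 4 of the 6 were higher in Mut and 0 lower, against 11.3% and 8.73% of all genes. *kdelr2a* (ENSDARG00000005254), a receptor that returns escaped ER proteins from the Golgi, had 1120, 876 and 1000 in WT and 1158, 1191 and 1110 in Mut, overlapping slightly (adjusted p = 0.226). *sec13* (ENSDARG00000054807), of the outer vesicle coat, had 705, 690 and 703 in WT and 810, 870 and 800 in Mut (adjusted p = 0.078). *sec23ip* (ENSDARG00000061413), which binds the inner coat, had 465, 450 and 459 in WT and 536, 532 and 538 in Mut (adjusted p = 0.107). For both genes every Mut pool was higher, as it was for 12.9% of all genes, and neither passed. *sel1l*, the adaptor of the main ubiquitin ligase of ER-associated degradation, differed by -0.03 ± 0.07 (adjusted p = 0.84).

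The 5 dpf calls were not equally firm. *hspa5*, *hsp90b1*, *calr3b* and *creld2* passed with any 1 library left out, whereas the other 4 of the 8 each lost their call without at least 1 library, and the count fell to 4 without Mut replicate 2 or without Mut replicate 3. Under the study's stricter rule, which adds a log2 fold change of at least 0.9, 1 of the 30 genes rose (*hspa5*) and 0 fell, beside 0.608% and 0.546% of all genes tested.

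At 8 dpf the ER genes were mostly lower in Mut. Of 32 genes 12 fell and 0 rose in limma, beside 3.32% of all genes tested that fell and 1.34% that rose. At an unadjusted p under 0.05, 23 were lower and 0 higher, against 12% and 8.77% of all genes. The median log2 fold change was -0.30, against 0.01 for all genes tested, and 31 of 32 genes had the lower mean in Mut and 1 the higher one, against 48% and 52% of all genes. The library medians over the WT mean were 0.05, -0.02 and -0.02 for WT against -0.32, -0.28 and -0.26 for Mut. All 3 Mut pools lay below all 3 WT pools for 27 of the 32 genes, as they did for 17.3% of all genes. None of the 32 passed the stricter rule of a log2 fold change of -0.9 or lower, which 0.701% of all genes did.

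The 12 calls at 8 dpf were not firm. None of them held with each library left out in turn, the count dropping to 7 without WT replicate 1, 4 without WT replicate 2, 2 without WT replicate 3 or Mut replicate 3, and 0 without Mut replicate 1 or Mut replicate 2. The falls called over all genes dropped in the same fits, from 696 to 477, 213, 115, 119, 29 and 39 in that order. Because of the batch term, leaving out WT replicate 3 or Mut replicate 3 gives a genotype effect from replicates 1 and 2 alone. The direction did not depend on any 1 library, since 30 to 32 of the 32 genes had the lower mean in Mut each time. Without the mean-variance trend in limma, 0 of the 32 genes passed at 8 dpf, as did 0 of all genes, and 15 of the 32 were lower at an unadjusted p under 0.05. The authors had removed a batch effect at this age without naming the replicates concerned. A comparison of the study's matrices before and after removal put replicates 1 and 2 in a first batch and replicate 3 in a second. Within the first batch 31 of 32 genes were lower in Mut with a median of -0.31, and in the second, which has 1 pool per genotype, 30 of 32 were lower with a median of -0.26.

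Of the 5 lumenal chaperones and cofactors counted at 8 dpf, 3 fell, beside 3.32% of all genes tested. *hsp90b1* had 6121, 6376 and 6004 in WT and 4031, 4612 and 4522 in Mut. It fell by 0.49 on the log2 scale (SE 0.08, adjusted p = 0.017), with the groups well apart. *hyou1*, named by the 5 dpf list and so testable here, had 1520, 1445 and 1464 in WT and 957, 1014 and 1005 in Mut, a difference of -0.57 ± 0.07 (adjusted p = 0.0096). *sdf2l1* had 501, 542 and 487 in WT and 355, 375 and 394 in Mut, or -0.44 ± 0.09 (adjusted p = 0.036). In all 3 genes the highest Mut pool lay below the lowest WT pool, as it did for 17.3% of all genes. The values of *manf*, which the study also listed at this age, were 559, 577 and 482 in WT and 239, 281 and 307 in Mut, or -0.97 ± 0.12 with no test. *hspa5* had 8142, 7252 and 7626 in WT and 5772, 6847 and 6383 in Mut. Its groups did not overlap, but the pools of each spread more than at 5 dpf and -0.28 ± 0.09 was not called (adjusted p = 0.118). *SIL1*, called in the study's 5 dpf list, had 281, 255 and 311 in WT and 306, 315 and 268 in Mut, with overlapping groups (0.07 ± 0.12, adjusted p = 0.78).

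Among the 4 disulfide factors *creld2* and *pdia6* fell at 8 dpf, beside 3.32% of all genes tested. *creld2* had 297, 292 and 249 in WT and 150, 145 and 176 in Mut, a difference of -0.83 ± 0.13 (adjusted p = 0.019) that left the Mut pools at 0.563 of the WT level. *pdia6* had 995, 914 and 976 in WT and 740, 714 and 716 in Mut, or -0.41 ± 0.07 (adjusted p = 0.023), with the Mut pools close together after the batch removal. *calr3b* had 558, 771 and 633 in WT and 478, 478 and 500 in Mut. Its groups were separate but WT varied, and it was not called (-0.42 ± 0.12, adjusted p = 0.096). *pdia2* had the largest SE of the 33 genes at this age, with 117, 225 and 306 in WT and 197, 114 and 80 in Mut, the groups overlapping and -0.72 ± 0.41 (adjusted p = 0.362). Ranked by *pdia2*, the libraries ran WT replicate 3, WT replicate 2, Mut replicate 1, WT replicate 1, Mut replicate 2 and Mut replicate 3, and the summed values of 17 exocrine pancreas markers, given further down, ran in the same order. At 5 dpf they did not, since *pdia2* was highest in Mut replicates 2 and 3 while the marker sum of every Mut pool lay below that of every WT pool. Any link between *pdia2* and the markers was not tested, and *pdia2* was picked after its values were seen. Both ends of the 8 dpf order are replicate 3, which the batch removal leaves mirrored. *CRELD1* differed by -0.38 ± 0.11 and was not called (adjusted p = 0.087).

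Beside 3.32% of all genes tested, 4 of the 12 targeting and translocation genes fell at 8 dpf. *sec11a* had the largest difference of them, with 790, 791 and 774 in WT and 534, 506 and 535 in Mut. After the batch removal both groups were tight and far apart (-0.58 ± 0.07, adjusted p = 0.012), although the genotypes had overlapped at 5 dpf. *sec61al2* had 674, 651 and 660 in WT and 517, 514 and 522 in Mut, or -0.35 ± 0.07 (adjusted p = 0.036). *SEC61A1*, not among the 12, was lower in Mut without a call (-0.26 ± 0.06, adjusted p = 0.051). Of the translocon-associated protein complex, *ssr3* had 2551, 2095 and 2348 in WT and 1755, 1842 and 1785 in Mut (-0.37 ± 0.08, adjusted p = 0.047) and *ssr4* had 2259, 2017 and 2133 in WT and 1665, 1725 and 1709 in Mut (-0.33 ± 0.07, adjusted p = 0.038). Both were lower in every Mut pool, as were 17.3% of all genes. The other subunits were lower too but did not pass, *ssr1* with 1614, 1506 and 1407 in WT and 1197, 1304 and 1394 in Mut (adjusted p = 0.197) and *ssr2* with 3285, 2557 and 2695 in WT and 2085, 2328 and 2389 in Mut (adjusted p = 0.134). The genotypes overlapped for *srp72*, with 1941, 1810 and 1772 in WT and 1749, 1819 and 1901 in Mut (-0.01 ± 0.07, adjusted p = 0.932). *srp14* had 872, 761 and 759 in WT and 691, 685 and 744 in Mut and was not called (adjusted p = 0.301). The remaining differences were -0.08 ± 0.07 for *srp54*, -0.21 ± 0.10 for *srp19*, -0.23 ± 0.08 for *sec63* and -0.22 ± 0.10 for *spcs3*, with no call.

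Over all genes tested, 3.32% fell at 8 dpf. *dad1* fell among the 3 N-glycan transfer genes, with 1375, 1199 and 1326 in WT and 1041, 1024 and 1007 in Mut (-0.34 ± 0.08, adjusted p = 0.045). *STT3B* had 1969, 2008 and 1842 in WT and 1649, 1623 and 1780 in Mut, which did not pass (-0.20 ± 0.07, adjusted p = 0.152), and *rpn2* differed by -0.16 ± 0.06. All 3 were lower in every Mut pool, as were 17.3% of all genes. Of the 6 transport genes *kdelr2a* and *sec13* fell. *kdelr2a* had 1500, 1454 and 1480 in WT and 1026, 1027 and 1032 in Mut, and differed by -0.52 ± 0.06 (adjusted p = 0.01). Its Mut pools were almost identical after the batch removal. *sec13* had 1556, 1506 and 1524 in WT and 1241, 1243 and 1257 in Mut, or -0.29 ± 0.06 (adjusted p = 0.038). *sec23ip* had 672, 655 and 646 in WT and 595, 583 and 610 in Mut, lower in every Mut pool but not called (-0.14 ± 0.07, adjusted p = 0.311). The coat and fusion genes *sec23b*, *sec24d* and *sec22bb* differed by -0.29 ± 0.11, -0.30 ± 0.15 and -0.10 ± 0.08, after 0.01 ± 0.08, 0.23 ± 0.10 and 0.01 ± 0.09 at 5 dpf, and were called at neither age. *sel1l* differed by -0.18 ± 0.07 (adjusted p = 0.197).

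Whether the genotype effect differed between the ages was tested per gene as the effect at 8 dpf minus that at 5 dpf, the ages having no library in common. The 30 genes not named only by lists of changed transcripts include *hspa5*, which also stands in the 5 dpf list. Of these 30, 18 had a lower effect at 8 dpf and 0 a higher one, beside 6.15% and 1.94% of the 20598 genes tested. At an unadjusted p under 0.05 the counts were 28 and 0, against 13.4% and 8.38% of all genes. The difference was negative for all 30, with a median of -0.51, against 0.02 for all genes. With any 1 library left out, 12 to 21 of the 30 passed. Among the 18 that passed, the largest difference was that of *creld2*, -1.67 ± 0.19 (adjusted p = 3.1e-05), which rose at 5 dpf and fell at 8 dpf. *hspa5* (-1.28 ± 0.11, adjusted p = 5.4e-06), *hsp90b1* (-1.21 ± 0.10, adjusted p = 3.4e-06) and *calr3b* (-1.09 ± 0.15, adjusted p = 3.7e-04) followed. *pdia2* had a difference of -1.14 ± 0.43 and did not pass (adjusted p = 0.153). Among the other roles, *sec61al2* differed by -0.72 ± 0.12 (adjusted p = 6.8e-04) and *sec13* by -0.53 ± 0.09 (adjusted p = 0.0014). Some genes reached a difference between ages with a call at 1 age only, such as *sec11a* (-0.72 ± 0.13, adjusted p = 0.0019), which was called at 8 dpf, and *srp72* (-0.37 ± 0.10, adjusted p = 0.023), called at 5 dpf. For *srp14*, *ssr1*, *ssr2* and *sec23ip* neither age alone passed while the difference did, at -0.53 ± 0.14, -0.51 ± 0.12, -0.46 ± 0.13 and -0.37 ± 0.10.

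Both a rise at 5 dpf and a fall at 8 dpf were called for 60 genes of the 20598, or 0.291%. Among the 30 genes these were *creld2*, *hsp90b1*, *sdf2l1* and *sec61al2*, 4 of 30. *manf* and *hyou1* also changed in both directions, but their names came from the list of 1 or both of those changes. Without any threshold, a higher mean at 5 dpf with a lower mean at 8 dpf was seen for 28 of the 30 genes, against 22.9% of all genes.

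**Figure D3:**
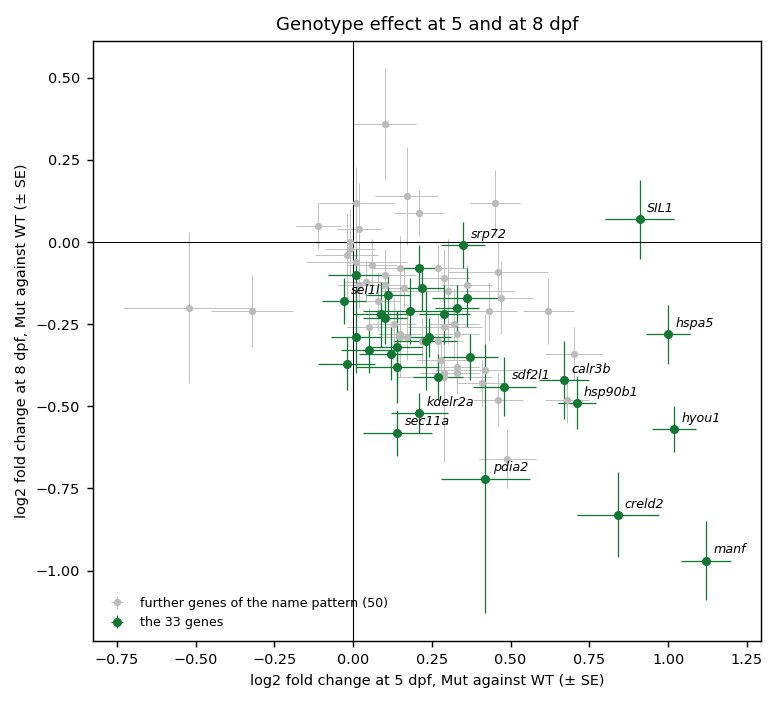
Log2 fold change of Mut against WT at 5 dpf (x axis) and at 8 dpf (y axis), both ± SE (limma, 3 pools per genotype and age), for the 33 genes (green) and for 50 further genes whose reference symbol fits the same name pattern (grey). Most points lie at the lower right, higher in Mut at 5 dpf and lower at 8 dpf, with *manf*, *creld2* and *hyou1* farthest out and *SIL1* near 0 on the y axis at 0.07.

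The study's tables name few of the genes in the files, so the same name pattern was also applied to reference gene names. This found 50 further genes, all tested at both ages. One, *dnajc30b*, is caught by its prefix only and is not an ER folding gene. Of all genes tested, 3.82% rose and 2.17% fell at 5 dpf (11.3% higher and 8.73% lower at an unadjusted p under 0.05). The shares at 8 dpf were 3.32% that fell and 1.34% that rose (12% lower and 8.77% higher). Between the ages 6.15% had a lower and 1.94% a higher effect at 8 dpf. At 5 dpf 14 of the 50 rose and 0 fell (24 higher and 2 lower at an unadjusted p under 0.05), with a median of 0.21, and at 8 dpf 9 fell and 0 rose (19 lower and 0 higher), with a median of -0.19. Between the ages 22 of 50 had a lower effect at 8 dpf and 0 a higher one. Those that rose at 5 dpf were the J-domain cochaperones of BiP *dnajc3a* (0.70 ± 0.09), *dnajc3b* (0.43 ± 0.09) and *DNAJB11* (0.46 ± 0.08), the lectin chaperones *CANX* (0.33 ± 0.07) and *calr3a* (0.33 ± 0.07), and the oligosaccharyltransferase subunits *STT3A* (0.36 ± 0.08), *DDOST* (0.33 ± 0.07) and *OSTC* (0.41 ± 0.08). With them rose *SRPRA* (0.32 ± 0.08), the receptor of the signal recognition particle, *SEC22B* (0.47 ± 0.10), a fusion protein, *SEC24A* (0.45 ± 0.08), a cargo-binding coat protein, and *PDIA4*, *XBP1* and *TRAM1*. Those that fell at 8 dpf were the disulfide isomerases *PDIA4*, *PDIA5* (-0.40 ± 0.08) and *P4HB* (-0.36 ± 0.06), the retrieval receptor *KDELR2* (-0.30 ± 0.07), and *TRAM1*, *DNAJB11* (-0.48 ± 0.08), *OSTC* (-0.43 ± 0.07), *DDOST* (-0.38 ± 0.08) and *calr3a* (-0.40 ± 0.06). The 2 lists share 6 genes. Of the 14 rises *PDIA4*, *XBP1* and *dnajc3a* held with any 1 library left out, while 0 of the 9 falls did. *XBP1* and the degradation factors of the *DERL*, *EDEM* and *HERPUD* families made up 9 of the 50. Only *XBP1* of these 9 was called at 5 dpf (3 higher and 0 lower at an unadjusted p under 0.05). At 8 dpf 0 of the 9 were called (1 lower and 0 higher).

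At 5 dpf *PDIA4*, a disulfide isomerase that in mammals is induced by ER stress, had 1008, 938 and 902 in WT and 1550, 1458 and 1545 in Mut (0.68 ± 0.07, adjusted p = 5.4e-04). At 8 dpf it had 1485, 1429 and 1393 in WT and 969, 1049 and 1063 in Mut (-0.48 ± 0.07, adjusted p = 0.015), the groups being apart at both ages in opposite order. *XBP1*, the transcription factor whose mRNA Ire1 splices, had at 5 dpf 3131, 2675 and 3125 in WT and 4561, 4889 and 4305 in Mut (0.62 ± 0.08, adjusted p = 0.002). Its 8 dpf groups overlapped, at 6689, 5436 and 6626 in WT and 5495, 5553 and 5066 in Mut (adjusted p = 0.259). Gene-level values do not separate its spliced from its unspliced form. *TRAM1*, a membrane protein beside the Sec61 channel, had 857, 698 and 744 in WT and 988, 1116 and 1125 in Mut, a rise of 0.49 ± 0.09 at the earlier age (adjusted p = 0.013). It later had 627, 667 and 625 in WT and 431, 371 and 417 in Mut, lower without overlap (-0.66 ± 0.09, adjusted p = 0.014). *calr3a* and *calr3b* are close relatives, and since the authors dropped reads with more than 1 alignment, the values of such relatives are less certain.

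Other genes of the pathway were counted in lists taken from textbook knowledge. For comparison, 3.82% of all genes rose and 2.17% fell at 5 dpf. The shares at 8 dpf were 3.32% that fell and 1.34% that rose (12% lower and 8.77% higher at an unadjusted p under 0.05). Between the ages 6.15% had a lower and 1.94% a higher effect at 8 dpf. Of 34 other ER folding and glycan enzymes, 4 rose and 1 fell at 5 dpf. The rises were *agr2* (0.52 ± 0.13), *serpinh1b* (0.45 ± 0.07), a collagen chaperone, *uggt1* (0.40 ± 0.09), the sugar-based folding sensor, and *mesdc2* (0.38 ± 0.09), and *tmx3*, a membrane-bound disulfide isomerase, fell (-0.44 ± 0.10). At 8 dpf 9 of the 34 fell and 0 rose (20 lower and 1 higher at an unadjusted p under 0.05), namely *p4ha1b* (-1.0 ± 0.19), a subunit of the collagen-modifying prolyl hydroxylase, *tmx3* (-0.90 ± 0.10), *uggt1* (-0.64 ± 0.11), *txndc12* (-0.57 ± 0.08), *agr2* (-0.56 ± 0.10), *dnajc10* (-0.45 ± 0.09), *mogs* (-0.40 ± 0.09), *prkcsh* (-0.32 ± 0.06) and *ppib* (-0.32 ± 0.07). Of these, *tmx3* fell at both ages, while *uggt1* and *agr2* rose at 5 dpf and fell at 8 dpf. The effect was lower at 8 dpf for 13 of the 34 and higher for 0.

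Genes of the vesicle coats and their cargo receptors formed another list. Over all genes 3.82% rose and 2.17% fell at 5 dpf, and 1.34% rose and 3.32% fell at 8 dpf. At an unadjusted p under 0.05, 11.3% were higher and 8.73% lower at 5 dpf, and 8.77% and 12% at 8 dpf. Between the ages 6.15% had a lower and 1.94% a higher effect at 8 dpf. Of 38 tested at 5 dpf, 4 rose, *tmed1a* (0.91 ± 0.18), *sar1b* (0.33 ± 0.08), *tfg* (0.32 ± 0.08) and *tmed10* (0.30 ± 0.07), and 1 of the 2 genes named *arf4a* fell. Of 36 tested at 8 dpf, 3 fell, the other *arf4a* (-0.73 ± 0.14), *tmed9* (-0.40 ± 0.08) and *arcn1a* (-0.32 ± 0.06), and 0 rose (17 lower and 0 higher at an unadjusted p under 0.05), and between the ages 13 of the 36 had a lower effect at 8 dpf and 0 a higher one. Of ER-associated degradation 0 of 15 genes were called at either age in limma (2 higher and 0 lower at an unadjusted p under 0.05 at 5 dpf, 1 and 2 at 8 dpf), and medians of 0.04 and -0.05. Between the ages *vcp*, the ATPase that pulls proteins out of the ER (-0.59 ± 0.11, adjusted p = 0.0029), and *syvn1*, the ubiquitin ligase that works with Sel1l (-0.39 ± 0.11, adjusted p = 0.028), had a lower effect at 8 dpf.

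Sensors, transcription factors and other factors tied to the unfolded protein response, such as *chac1*, *mbtps1* and *ppp1r15a*, were counted apart from the folding genes. Of 17 tested at 5 dpf, 3 rose and 0 fell (5 higher and 3 lower at an unadjusted p under 0.05). Over all genes 3.82% rose and 2.17% fell (11.3% higher and 8.73% lower). *atf3*, a stress-induced transcription factor, had 161, 150 and 179 in WT and 324, 296 and 337 in Mut (0.96 ± 0.11, adjusted p = 7.6e-04). *trib3*, a pseudokinase induced downstream of Atf4, had 575, 523 and 517 in WT and 806, 915 and 840 in Mut (0.66 ± 0.08, adjusted p = 0.0013). *atf6*, the sensor that is cut to become a transcription factor, had 616, 545 and 551 in WT and 769, 724 and 699 in Mut (0.36 ± 0.08, adjusted p = 0.029). The groups were separate in all 3, and 12.9% of all genes had every Mut pool above every WT pool. At 8 dpf 0 of 15 were called in limma (3 higher and 0 lower at an unadjusted p under 0.05, against 8.77% and 12% of all genes). The median was 0.13, and 14 of 15 genes had the higher mean in Mut, as 52% of all genes did, where most folding genes had the lower one. Between the ages 1 of the 15 had a lower effect at 8 dpf and 0 a higher one, beside 6.15% and 1.94% of all genes. This was *atf3* (-0.92 ± 0.16, adjusted p = 0.0011), which was not called at 8 dpf (0.04 ± 0.11, adjusted p = 0.878). *trib3* had at 8 dpf 1112, 916 and 1199 in WT and 1627, 1407 and 1283 in Mut, every Mut pool being higher, and missed the threshold (0.42 ± 0.12, adjusted p = 0.099). *ppp1r15b* had the largest 8 dpf difference of the list, 0.74 ± 0.21 without overlap, and missed it too (adjusted p = 0.097). *ddit3*, which encodes Chop, and *eif2ak3*, which encodes Perk, differed at 5 dpf by 0.02 ± 0.07 and 0.02 ± 0.08 and at 8 dpf by 0.23 ± 0.09 and 0.01 ± 0.10, with no call.

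Markers of secretory tissues moved in these libraries as well. Over all genes 3.82% rose and 2.17% fell at 5 dpf, and 1.34% rose and 3.32% fell at 8 dpf. At an unadjusted p under 0.05, 11.3% were higher and 8.73% lower at 5 dpf, and 8.77% and 12% at 8 dpf. The summed value of 17 exocrine pancreas genes was 135587 to 188930 in the WT pools and 69033 to 85760 in the Mut pools at 5 dpf, with 15 of the 17 falling. At 8 dpf the sum was 22134 to 69139 in WT and 10524 to 30900 in Mut, with 0 called in limma, 9 lower at an unadjusted p under 0.05 and overlapping groups. Hepatocyte markers summed to 211929 to 287968 in WT and 178103 to 210357 in Mut at 5 dpf (8 of 21 fell) and to 120981 to 197332 and 89070 to 109995 at 8 dpf (7 of 21 fell). Of 7 islet markers 4 rose and 1 fell at 5 dpf and 2 fell at 8 dpf. The cartilage and notochord list had 0 calls at either age (1 and 2 genes at an unadjusted p under 0.05), and of 4 goblet cell genes only *agr2*, which is itself an ER disulfide isomerase and is counted in both lists, was called, rising at 5 dpf and falling at 8 dpf. No marker was listed at 0 in any library except 1 hepatocyte gene at 5 dpf. The 30 ER genes not named only by lists of changed transcripts include *hspa5*. At 5 dpf they summed to 32310 to 35697 in WT and 42846 to 44647 in Mut. The sums at 8 dpf were 47376 to 49992 in WT and 38041 to 40038 in Mut. The part of these tissues in the results was not tested.

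**Figure D4:**
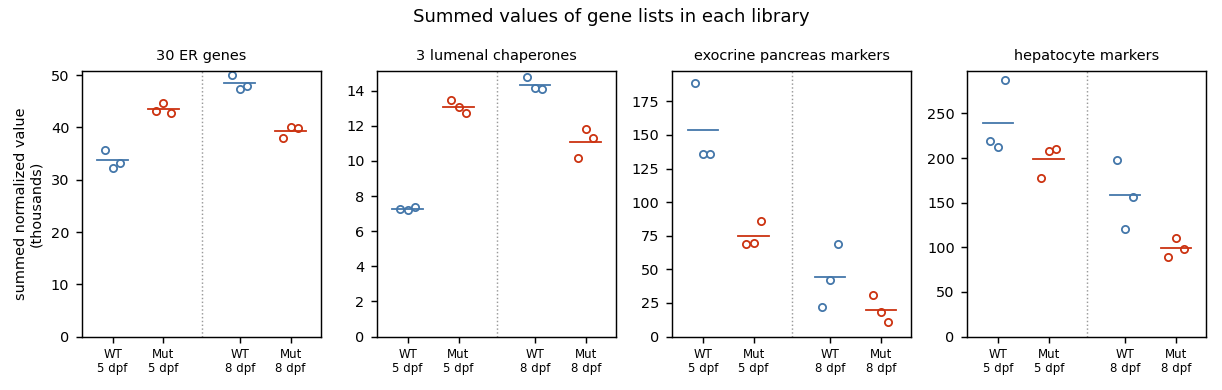
Summed normalized value (y axis, from 0) of 4 gene lists in each library (points, WT in blue, Mut in red, line at the group mean of 3 pools), with 5 dpf left and 8 dpf right of the dotted line. The sums of the 30 ER genes and of the 3 lumenal chaperones among them were higher in every Mut pool at 5 dpf. At 8 dpf both sums were lower in every Mut pool. They leave out genes named only by lists of changed transcripts but hold *hspa5*, which also stands in the 5 dpf list. Taken singly, 14 of the 30 genes had every Mut pool above every WT pool at 5 dpf, against 12.9% of all genes. The sum of the exocrine pancreas markers was lower in Mut at 5 dpf and overlapped at 8 dpf.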

How the data were processed

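RNA-Seq of whole-larva pools was analysed from the authors' 2 tables, 1 per age. Per the study's methods, stranded mRNA libraries were read in pairs, trimmed with Trimmomatic 0.33, aligned with STAR 2.4.0a to GRCz10 and counted per gene with featureCounts 1.4.5-p1, and only reads with 1 alignment in 1 gene were used. The score deposited by the authors at 5 dpf is the count over a size factor, rounded. The score at 8 dpf is log expression with a batch effect removed by the authors (removeBatchEffect, edgeR 3.16.5), returned to a linear scale in whole numbers. These are not counts, so log2(value + 1) was fitted with limma 3.58.1 (R 4.3.3, eBayes with trend, two-sided, Benjamini-Hochberg adjusted over all genes tested) for genes whose 6 libraries average at least 5, with the genotype at 5 dpf and genotype and batch at 8 dpf. The batches at 8 dpf, replicates 1 and 2 against replicate 3, were derived by comparing the study's matrices before and after removal. The effect at 8 dpf minus that at 5 dpf was divided by the root of the summed squared SE (Satterthwaite degrees of freedom). The fits and the size factor estimate were tested on simulated data.

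Symbols came from the study's tables (4385 of 31953 identifiers) and from reference names (26121 identifiers). The genes and lists were chosen with earlier results of these data known. Values per library are given for genes called at either age or between ages and for those named only by lists of changed transcripts, and other genes are given as differences or counts. *pdia2*, *PDIA4*, *XBP1*, *TRAM1*, the regulators with values and the other genes with differences were picked after their values were seen. The alternatives were other pseudocounts (0.5 and 5), filters (none, or a mean of 50) and scalings, no trend, a replicate block, stricter thresholds, no batch term, only replicates 1 and 2 at 8 dpf, and leaving out each library. Limma-voom on estimated reads (5 dpf) was added after the data were seen. Proteomic values were not used here.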

Additional observations from a re-analysis of the deposited data

Results flagged for a closer look

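In 18 of the 30 genes not named only by lists of changed transcripts the genotype effect differed between the ages. The test was that of the difference itself (limma effects, adjusted p under 0.05). In all 18 the effect at 8 dpf was the lower one. Over all genes, 6.15% had a lower and 1.94% a higher effect at 8 dpf. *hspa5*, among the 18, also stands in the study's 5 dpf list of changed transcripts. The differences below are log2 fold changes at 8 dpf minus those at 5 dpf. Among the chaperones and folding factors they were -1.67 for *creld2*, -1.28 for *hspa5*, -1.21 for *hsp90b1*, -1.09 for *calr3b*, -0.92 for *sdf2l1* and -0.68 for *pdia6*. In targeting and translocation they were -0.72 for *sec11a* and for *sec61al2*, -0.53 for *srp14*, -0.51 for *ssr1*, -0.46 for *ssr2*, -0.38 for *ssr4* and -0.37 for *srp72*. For N-glycan transfer they were -0.54 for *STT3B* and -0.47 for *dad1*, and for transport -0.74 for *kdelr2a*, -0.53 for *sec13* and -0.37 for *sec23ip*. The age, the feeding of the 8 dpf larvae, the starvation the authors expected at that age and the separate normalization cannot be told apart in these differences. With 3 libraries per group, single libraries were not tested for standing apart.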

How the results depend on the processing

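No alternative reversed the sign of a called value. The count of 8 genes that rose at 5 dpf was 4 without the trend in eBayes, 4 at an adjusted p under 0.01, 1 with the added log2 fold change of 0.9, and 4 to 9 with each library left out. The count of 12 that fell at 8 dpf was 0 without the trend (15 of the 32 at an unadjusted p under 0.05, and 0 of all 20963 genes passed), 2 at an adjusted p under 0.01, 0 with the added fold change, 2 in replicates 1 and 2 alone, and 0 to 7 with each library left out. None of the 8 dpf calls therefore held without the mean-variance trend, and none held in every fit with 1 library left out. Falls over all genes dropped as well, from 696 to between 29 and 477 with each library left out. The count of 18 differences between ages was 11 without the trend and 12 to 21 with each library left out. The median at 8 dpf of -0.30 became -0.34 when libraries were scaled to the same total and ran from -0.33 to -0.27 with libraries left out, and that at 5 dpf from 0.20 to 0.25. The counts kept within 1.5 times under the other pseudocounts, filters and scalings, without the batch term (14 at 8 dpf and 22 between ages) and with limma-voom (8 at 5 dpf). Over the genes given in full, 983 of 1166 single values under an alternative stayed on their side of the threshold, 178 lost the call and 5 gained it. The 983 include values that were never called, and the genes include *manf*, *hyou1* and *SIL1*. That share therefore does not measure how well the calls held.

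The samples were not treated as paired by replicate number, since the labels state no shared origin. Deviations of same-numbered pools correlated at -0.28, -0.191 and -0.0959 at 5 dpf. At 8 dpf they correlated at -0.281, -0.184 and -0.999, the last set by the batch removal, which leaves replicate 3 of each genotype mirrored. These values cannot show whether pools shared an origin, because the clutches are unknown and the 8 dpf batch follows the replicate number. With the replicate block 4 genes rose at 5 dpf, 6 fell at 8 dpf and 12 differed between ages. Exact tests over 3 against 3 pools cannot go below p = 0.1.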
